A study of Canis lupus familiaris with 77 samples.

Results

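The data concern 3 mature miRNAs, cfa-miR-192, cfa-miR-194 and cfa-miR-215, among 650 miRNAs with at least 1 read. They were chosen by name, as rows of the deposited table, with earlier results of these data known. The libraries number 76 and come from 16 tissues of untreated male Marshall beagle dogs, 10 months of age and perfused with buffered saline before the organs were taken. There were 5 libraries of each of 14 tissues (liver, heart, testis, lung, quadriceps skeletal muscle, kidney, thymus, brain, pancreas, duodenum, jejunum, ileum, bone marrow and plasma), while colon has 4 libraries and sciatic nerve has 2. The study took these tissues from 5 dogs, so libraries of different tissues can share a dog, which no test took into account. The labels give no dog numbers and do not say whether the libraries of a tissue come from separate dogs, so that p-values measure only the spread between these samples, which may be technical. The study's methods describe the sciatic nerve samples in different ways, and in 1 of these they are splits of a pool of RNA from all dogs. Bone marrow and plasma RNA was isolated by other procedures than the RNA of the organs. The study also reports low RNA integrity for plasma, bone marrow and some kidney samples, and a lower share of mapped reads for bone marrow. No test took this into account.

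A miRNA is a short RNA that guides a silencing complex to messenger RNAs through its seed, the bases near its 5′ end. miR-192 and miR-215 share a seed and are counted as 1 family, while miR-194 has another seed and is made in mammals from the same primary transcripts as either of them. The members are known for their high levels in epithelial organs, above all gut, liver and kidney, where hepatocyte nuclear factors drive their transcription, and both transcripts are also known as targets of p53. In RefSeq's gene table for the dog assembly UU_Cfam_GSD_1.0, which is not the build of the counts, MIR215 and MIR194 were next to each other within IARS2, and MIR192 was on another chromosome next to EHD1. That table held 1 entry of each gene, and the reads of a mature miR-194 do not tell which locus made it.

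The libraries held from 157871 to 7896424 reads on miRNAs, with a median of 1364823. A count of 3 reads, the limit that a count of 0 allows, was worth from 0.380 RPM (reads on a miRNA per 1000000 reads on all miRNAs) where a library was deepest to 19.0 RPM where it was shallowest. As a floor this covers counting error only. Defining miRNAs of the labelled tissue were present in liver (miR-122 from 19138 to 29157 RPM), pancreas (miR-217 from 3006 to 6274 RPM) and brain (miR-9 from 21762 to 40348 RPM). For kidney miR-204 was read (6267 to 9751 RPM), but brain held 2833 to 18388 RPM of it, so that it does not mark kidney against brain. A defining miRNA was nearly absent from each of 2 libraries, since testis replicate 3 had 1 read of miR-202, and skeletal muscle replicate 4 had 2 reads of miR-1. The summed level of miR-1, miR-133a and miR-206 was at least 690 RPM in every skeletal muscle library, with a median of 60168 RPM. Its lowest value there does not mark muscle, since colon (186 to 1113 RPM), ileum (180 to 1311 RPM), duodenum, testis and sciatic nerve also reached it. A library of brain, replicate 3, stood apart in miR-192 itself. Results that rest on these 3 libraries are given with and without them. In all 16 tissues fewer cells of a type and less RNA per cell cannot be told apart.

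miR-192 was the most abundant miRNA by tissue median in both jejunum and liver, and ranked 2 of 650 in duodenum, ileum and colon. In jejunum it stood at 277959, 398717, 321726, 224693 and 302243 RPM in replicates 1 to 5. The liver libraries had 176111, 221981, 188091, 176166 and 159657 RPM. All 5 jejunum libraries were above the 5 liver libraries, and the narrow range in liver contrasted with the wider ranges along the intestine.

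The 4 colon libraries held 132435, 103785, 179381 and 204565 RPM of miR-192. In ileum the values were 154549, 253646, 227586, 57382 and 55940 RPM. Duodenum ranged most widely, with 267076, 385247, 22363, 5189 and 77588 RPM. The highest duodenal library was thus 74.3 times the lowest, against 1.77 times in jejunum, and duodenum overlapped with every other intestinal segment.

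Kidney (31926 to 56013 RPM, median 46094) and pancreas (24407 to 31891, median 26491) followed without overlapping each other. Plasma had 9294, 10683, 16762, 30131 and 10529 RPM. In the other 8 tissues the medians lay between 787 RPM in skeletal muscle and 3118 RPM in testis, and the 2 sciatic nerve libraries held 2043 and 649 RPM. miR-192 was therefore read in every library, and in skeletal muscle, the tissue of its lowest median, it still ranked 52 of 650 miRNAs. Without testis replicate 3 (3118 RPM) and skeletal muscle replicate 4 (894 RPM), the other libraries of these tissues ran from 1802 to 3871 RPM and from 504 to 844 RPM.

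miR-194, the partner from the same transcripts, was lower than miR-192 in every tissue. It stood in jejunum at 24141, 39122, 30557, 23077 and 28457 RPM. The ileum libraries had 11766, 24986, 20255, 3909 and 4849 RPM, so that the highest of them reached into the range of jejunum. Liver was again narrow, with 9930, 8833, 7908, 8760 and 8912 RPM.

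Colon held 5307, 5882, 8586 and 11672 RPM of miR-194, on both sides of the liver values. Duodenum held 23071, 43838, 691, 307 and 4054 RPM, a 143-fold range over the same libraries that spread in miR-192. Kidney (1238 to 2075 RPM) and pancreas (517 to 677 RPM) did not overlap. In bone marrow miR-194 stood at 173, 113, 211, 206 and 189 RPM, from 27 to 41 reads a library. All other medians were between 25.8 RPM in skeletal muscle and 125 RPM in testis.

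miR-215, which shares the seed of miR-192, was abundant in the intestine and low elsewhere. In jejunum the 5 values were 43168, 89467, 79967, 44759 and 53125 RPM. Ileum held 21317, 44871, 43174, 9365 and 9800 RPM. The duodenal libraries had 37817, 91939, 424, 480 and 6982 RPM. The highest and lowest of these differed 217-fold, the widest range of any member in a tissue in which all libraries had reads.

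Colon was lower, with 1954, 1218, 3414 and 2961 RPM of miR-215, below every library of jejunum and ileum. In the other 12 tissues no median passed 100 RPM. Liver, where miR-192 made up between 16.0% and 22.2% of all miRNA reads, held only 47.1, 74.8, 163, 80.1 and 72.7 RPM of miR-215, from 60 to 194 reads a library. Kidney had 38.5, 54.9, 33.9, 21.1 and 27.6 RPM. All 4 colon libraries were thus above every liver and kidney library.

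In plasma miR-215 stood at 50.9, 36.8, 99.4, 474 and 121 RPM. Bone marrow held 1 to 3 reads of miR-215 in each library, at or under the floor, and no fitted fold is given for it. Brain replicate 1 had no read, which allows up to 3 reads. Together the 3 members took 29.3% to 52.7% of all miRNA reads in jejunum (39.6% ± 8.94, SD, n = 5), 19.3% ± 2.32 (SD, n = 5) in liver and 4.59% ± 0.951 (SD, n = 5) in kidney. In duodenum their share ran from 0.598% to 52.1%.

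**Figure D1:**
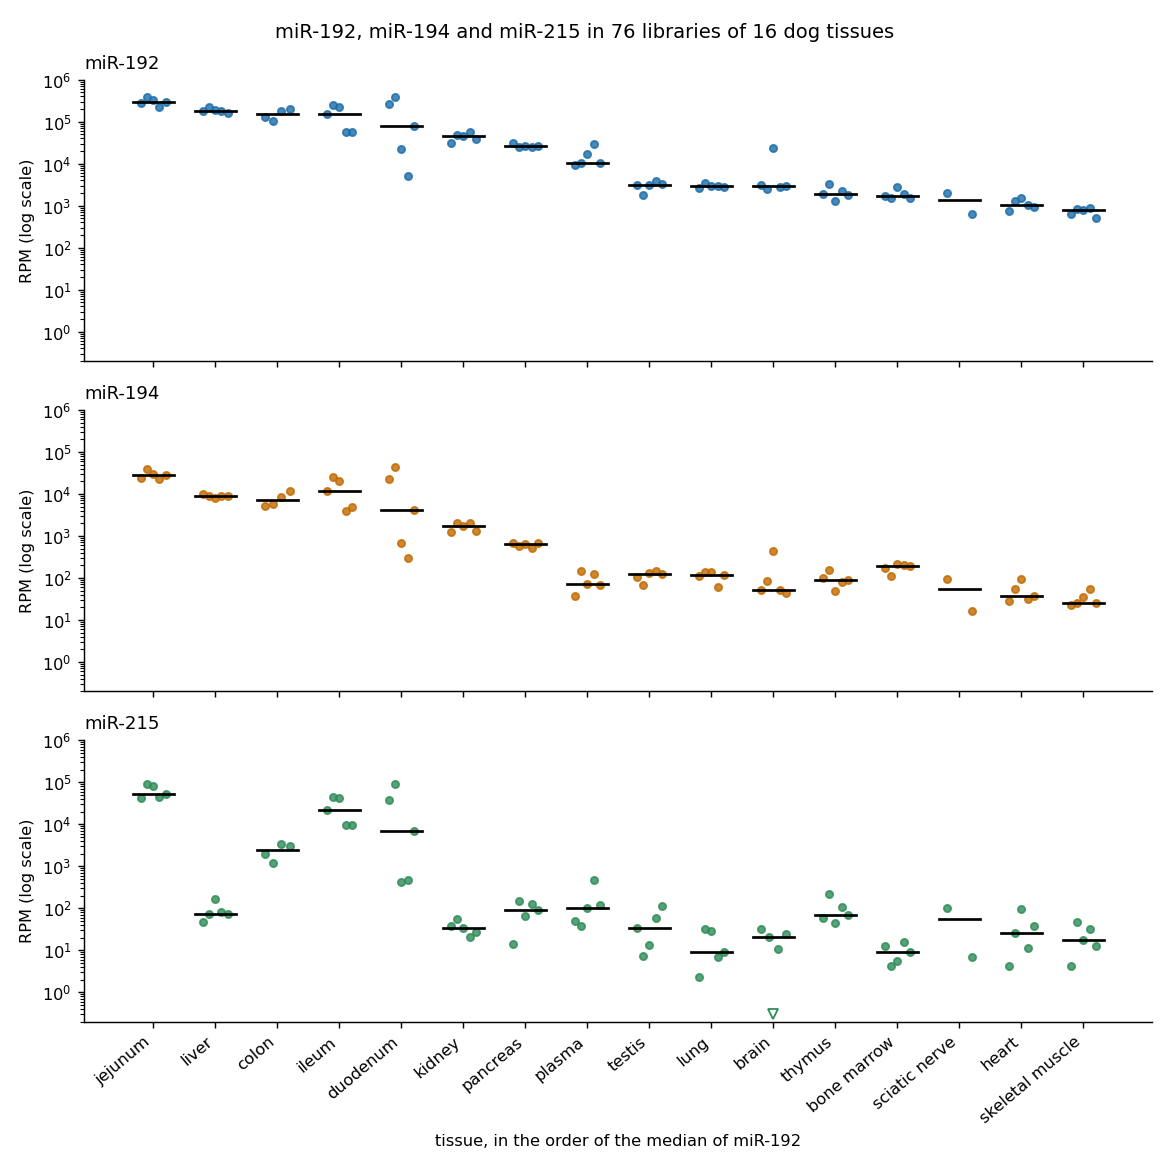
Level of miR-192, miR-194 and miR-215 (RPM, log scale) in each of 76 libraries by tissue, in the order of the median of miR-192. Points are libraries, black lines are medians (n = 5, colon 4, sciatic nerve 2) and an open triangle at the foot marks a library with 0 reads. miR-192 falls over the tissues by steps, whereas miR-215 drops from the 4 intestinal segments to medians under 100 RPM.

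Each pair of tissues was then compared for each member by a two-sided exact permutation test of log2(RPM + 1), adjusted by Benjamini-Hochberg over all 360 tests. Tissues differed in 85 of 120 pairs for miR-192, in 81 for miR-194 and in 64 for miR-215. With 5 libraries against 5 the smallest p that can be reached is 0.00794, and with 2 against 5 it is 0.0476, and no pair with sciatic nerve passed after adjustment. The order of the means could seldom be resolved between neighbours. Of 15 neighbouring pairs, 2 differed for miR-192, 4 for miR-194 and 1 for miR-215.

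For miR-192 these were jejunum above liver by 0.71 and kidney above pancreas by 0.69 on the log2(RPM + 1) scale (both adjusted exact permutation p = 0.0141). Liver, colon, ileum, duodenum and kidney followed each other with no difference between neighbours. For miR-194 the steps lay between jejunum and ileum (1.48, adjusted exact permutation p = 0.0379), kidney and pancreas (1.40, p = 0.0141), pancreas and bone marrow (1.83, p = 0.0141), and bone marrow and testis (0.63, p = 0.0497). The first of these was lost without any 1 of the 5 jejunal libraries. The last was lost in 8 of 10 cases with 1 library of either tissue left out, all but testis replicate 4 and bone marrow replicate 2 (log2 from 0.46 to 0.78). With TMM, a scaling by the bulk of the miRNAs, the step of miR-192 from jejunum to liver was 0.63 (adjusted exact permutation p = 0.0772). For miR-215 the single step was from colon to plasma (4.43, adjusted exact permutation p = 0.0262). Below colon, 12 tissues followed each other without a difference between neighbours in miR-215.

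The study's criteria for a tissue enriched (TE) miRNA were applied next: a mean over 5 times that of the samples of the other tissues, and an adjusted two-sided exact rank-sum p under 0.05. All 3 members were TE in jejunum and in no other tissue. In the paper, by contrast, miR-192 was said to fall short of the TE criteria. Its list of top miRNAs marked miR-215 as enriched, but not miR-192 or miR-194. Why the calls differ was not tested. Over all 500 miRNAs with reads in jejunum, 1.8% were TE there, and in the other tissues from 0% to 34.3% were TE. The ratio was 6.05 for miR-192, 9.01 for miR-194 and 15.8 for miR-215 (adjusted exact rank-sum p = 4.547e-04, 4.547e-04 and 5.413e-04). None met the study's criterion for a miRNA highly enriched in a single tissue, a median above 5 times the highest other sample. That quotient was 0.785, 0.649 and 0.578, since the highest duodenal library was above the jejunal median in each case.

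Ileum and liver passed the rank-sum test but not the fold for some members. In ileum miR-215 had a ratio of 3.96 with an adjusted exact rank-sum p of 0.0368. In liver miR-192 had a ratio of 3.13 with an adjusted exact rank-sum p of 0.0453. miR-194 in liver had a ratio of 1.91 (adjusted exact rank-sum p = 0.0531). When medians took the place of means, miR-192 was TE in liver as well as jejunum, and miR-215 in ileum as well as jejunum. By the means, 1.91% of miRNAs were TE in liver and 0.388% in ileum.

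The counts were also fitted with edgeR's quasi-likelihood test, in 1 fit over 16 tissues and 480 miRNAs, with Benjamini-Hochberg adjustment within each contrast. Values are log2 fold changes ± SE. Shares of miRNAs called are those of this fit, and were not counted for refits with other samples or settings. All 3 members were higher in the intestine, the mean of its 4 segments, than in the mean of the other 12 tissues, where 30.6% of all miRNAs were called higher. The difference was 5.0 ± 0.25 for miR-192 (edgeR adjusted p = 5.314e-28), 6.26 ± 0.29 for miR-194 (6.317e-29) and 8.84 ± 0.45 for miR-215 (3.756e-27).

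Against each tissue's other 15, miR-192 was called higher in 8 tissues (the 4 intestinal segments, liver, kidney, pancreas and plasma) and lower in the other 8. In plasma it lost that call without TMM, the scaling factors used, where the log2 difference was 0.23 (edgeR adjusted p = 0.773). miR-194 was called higher in 6 tissues, lower in 9 and neither in pancreas (0.43 ± 0.39, edgeR adjusted p = 0.461). Without the 3 libraries that stand apart it was called in pancreas as well, at 1.00 (edgeR adjusted p = 0.0128). miR-215 was called higher in the 4 intestinal segments alone, lower in 6 and neither in 5 of 15 tissues, bone marrow being left out for its reads. In jejunum, the tissue of the highest values, 27.3% of all miRNAs were called higher than in the other 15 tissues. Over the 16 tissues, from 16.5% to 45.2% of miRNAs were called higher and from 3.75% to 28.1% lower.

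Within the intestine miR-215 was called between the small intestine (mean of duodenum, jejunum and ileum) and colon. It was 14.3-fold higher there (log2 3.84 ± 0.87, edgeR adjusted p = 0.00279), where 1.25% of miRNAs were called higher. miR-194 differed by 1.15 ± 0.54 (edgeR adjusted p = 0.260). miR-192 differed by 0.25 ± 0.46 (edgeR adjusted p = 0.924), with a 95% interval from -0.66 to 1.16. The call of miR-215 does not hold for each segment. Duodenum replicates 3 and 4 held 424 and 480 RPM of it, below every colon library. Duodenum alone was not told apart from colon in miR-215 (1.31 on the log2(RPM + 1) scale, adjusted exact permutation p = 0.556).

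No pair of neighbouring segments was called in this fit for any member. From ileum to colon miR-215 differed by 3.23 ± 0.89 with an edgeR adjusted p of 0.138, although the values did not overlap. In that fit 0.208% of miRNAs were called higher in ileum than in colon. Fitted on those tissues alone, the difference was 3.19 with an edgeR adjusted p of 0.0181, and the share of all miRNAs called was not counted. Jejunum minus ileum gave 1.24 ± 0.52, 1.37 ± 0.57 and 1.52 ± 0.77 for miR-192, miR-194 and miR-215, none of them called (edgeR adjusted p = 0.188, 0.188 and 0.289), where 2.29% of miRNAs were called higher. Without the 3 libraries that stand apart, miR-192 and miR-194 were called in it, at 1.55 (edgeR adjusted p = 0.0234) and 1.68 (adjusted p = 0.0339).

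Duodenum minus jejunum gave -1.06 ± 0.52, -1.06 ± 0.57 and -1.21 ± 0.76, again with no call (edgeR adjusted p = 0.241, 0.269 and 0.367), where 0.208% of miRNAs were called lower. This rested on duodenum replicate 2, the duodenal library with the highest values of all 3 members. Without it the differences were -2.11, -2.51 and -2.94, all 3 called (edgeR adjusted p = 0.00429, 0.00138 and 0.00807). The share of all miRNAs called without that library was not counted.

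Against liver the members had unlike calls, and the differences between them were not tested in this fit. Small intestine minus liver was -0.09 ± 0.42 for miR-192 (edgeR adjusted p = 0.973), a sign that other scalings turned, with a 95% interval from -0.90 to 0.73. miR-194 was at 0.87 ± 0.48 (edgeR adjusted p = 0.153). It was called under DESeq2's size factors, where its difference was 1.20 (edgeR adjusted p = 0.0409), and without duodenum replicate 3, where it was 1.13 (adjusted p = 0.0464). miR-215 was 382-fold higher in the small intestine (8.58 ± 1.02, edgeR adjusted p = 1.566e-10), in a contrast with 23.1% of miRNAs called higher.

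Against kidney all 3 members were higher in the small intestine, by 1.43 ± 0.46, 2.73 ± 0.55 and 9.35 ± 1.05 (edgeR adjusted p = 0.00904, 3.229e-05 and 1.843e-11), where 19.6% of miRNAs were called higher. Without TMM each of the 3 was larger, by 0.68, 0.66 and 0.62. Liver exceeded kidney in miR-192 (1.51 ± 0.52, edgeR adjusted p = 0.0199) and miR-194 (1.86 ± 0.58, adjusted p = 0.00965), with 14.2% of miRNAs called higher. miR-215 was at 0.77 ± 0.77 in that contrast (edgeR adjusted p = 0.485). The call of miR-192 was lost when any of 6 single libraries was left out: kidney replicates 1 and 5, plasma replicates 3 and 5, skeletal muscle replicate 2 or colon replicate 3 (log2 from 1.31 to 1.35). The call of miR-194 was lost without kidney replicate 5 (1.65).

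Pancreas was below liver in miR-192 (-2.66 ± 0.55, edgeR adjusted p = 4.721e-05) and miR-194 (-3.71 ± 0.63, adjusted p = 1.364e-06), in a contrast with 19% of miRNAs called lower. Its miR-215 could not be told from that of liver (0.14 ± 0.76, edgeR adjusted p = 0.985), and its 5 libraries ran from 14.3 to 152 RPM. Duodenum, the segment next to the pancreas, was above it in all 3 members, by 2.28 ± 0.54, 4.33 ± 0.64 and 8.14 ± 1.03 (edgeR adjusted p = 4.378e-04, 9.661e-08 and 1.135e-09), with 22.9% of miRNAs called higher. The individual libraries overlapped in miR-192 and miR-194, where duodenum replicate 4 lay below every pancreas library. In miR-192 duodenum replicate 3 (22363 RPM) lay below them all as well.

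Plasma exceeded bone marrow in miR-192, by 4.22 ± 0.59 (edgeR adjusted p = 9.412e-09), among 26.5% of miRNAs called higher. All 5 plasma libraries were above the bone marrow libraries, which had 1676, 1527, 2767, 1931 and 1554 RPM. miR-194 differed by 0.11 ± 0.58 (edgeR adjusted p = 1) in the same contrast. Without TMM the values were lower by 1.18 and 1.08, which left miR-192 called and turned the sign of miR-194 to -0.98 (edgeR adjusted p = 0.222).

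**Figure D2:**
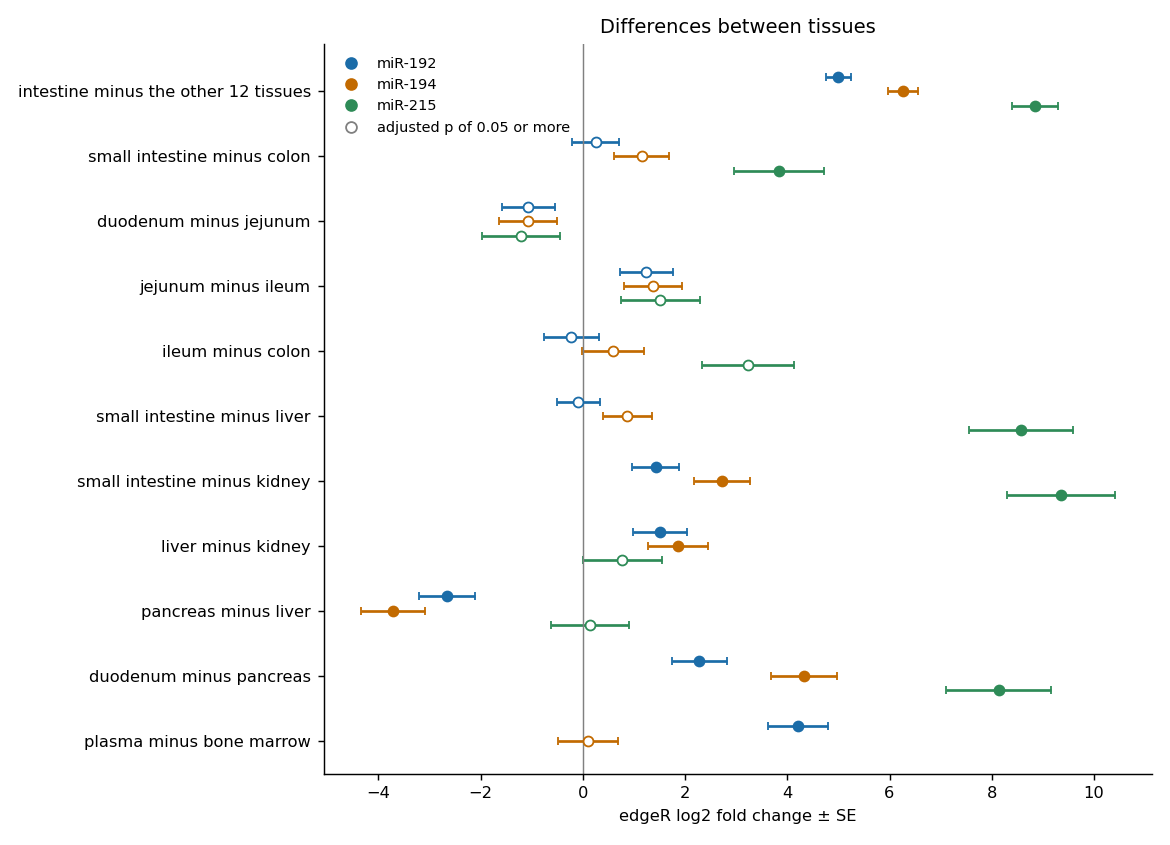
Differences between tissues in the edgeR fit, as log2 fold change (x axis) ± SE, for 11 contrasts of 3 members. Filled points have an adjusted p under 0.05 and open points do not, and miR-215 in plasma minus bone marrow is left out for its 1 to 3 reads. The members lie together between duodenum, jejunum and ileum, and miR-215 lies far to the right against liver, kidney and pancreas.

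Ratios of reads within a library do not depend on how libraries are scaled, and they were compared over 120 pairs of tissues by two-sided exact permutation tests, adjusted over 360 tests of 3 ratios. The number of reads of miR-215 for each 100 of miR-192 differed in 62 pairs. It was 15.5, 22.4, 24.9, 19.9 and 17.6 in the jejunal libraries. Ileum was narrow, at 13.8, 17.7, 19.0, 16.3 and 17.5. Between jejunum and ileum the log2 ratio differed by 0.24 (adjusted exact permutation p = 0.21).

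Colon held 1.48, 1.17, 1.90 and 1.45 reads of miR-215 for each 100 of miR-192, 13.4 times fewer than jejunum and 11.3 times fewer than ileum (both adjusted exact permutation p = 0.018). In liver the ratio was 0.0267, 0.0337, 0.0865, 0.0455 and 0.0455, 449.6 times below jejunum and 33.6 times below colon (both adjusted exact permutation p = 0.018). Kidney, with 0.0376 to 0.121, was 256 times below jejunum (adjusted exact permutation p = 0.018). Between liver and kidney the log2 ratio differed by -0.81 (adjusted exact permutation p = 0.144). The ranges of jejunum and ileum overlapped, and both were separate from that of colon, which was separate from that of liver.

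Thymus, a lymphoid organ with 1325 to 3345 RPM of miR-192, held 3.11 to 6.63 reads of miR-215 for each 100. That was 95.4 times the ratio of liver (adjusted exact permutation p = 0.018). Skeletal muscle and heart had medians of 2.52 and 2.04, from few reads of miR-215. The duodenal libraries had 14.2, 23.9, 1.90, 9.25 and 9.0, in the order of replicates 1 to 5, and were not told apart from jejunum (log2 -1.17, adjusted exact permutation p = 0.0893). Without duodenum replicate 2 the log2 difference was -1.52 (adjusted exact permutation p = 0.0179).

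The ratio of miR-194 to miR-192 moved over a much narrower range, and differed in 63 of 120 pairs. The median was 10.3 reads for each 100 of miR-192 in bone marrow, 9.50 in jejunum and 8.67 in ileum, the highest values. Between bone marrow and jejunum the log2 ratio differed by 0.0076 (adjusted exact permutation p = 0.968). Colon (5.23) and liver (4.97) stood at similar medians, 1.91 and 1.97 times below jejunum (both adjusted exact permutation p = 0.018).

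Kidney had a median of 3.76 reads of miR-194 for each 100 of miR-192 and pancreas one of 2.37, and both were below jejunum in every library. Pancreas was 2.09 times below liver (adjusted exact permutation p = 0.018). Plasma was lowest, with 0.392, 1.39, 0.438, 0.405 and 0.630. That was 8.34 times below liver and 16.5 times below bone marrow (both adjusted exact permutation p = 0.018), and no plasma library reached the range of any other tissue. Taking the sum of miR-192 and miR-215 as the base gave 63 differing pairs of 120.

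**Figure D3:**
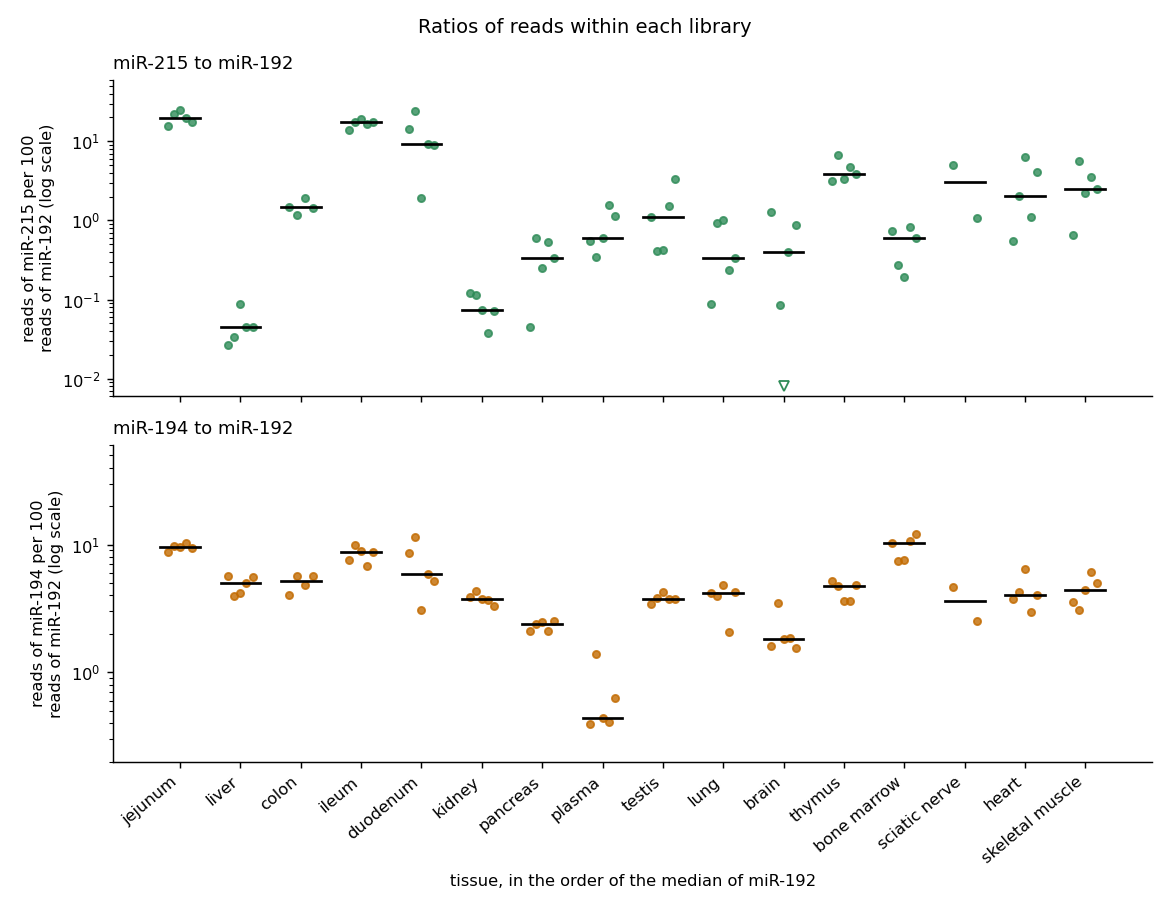
Reads of miR-215 (upper panel) and of miR-194 (lower panel) for each 100 reads of miR-192 in the same library, on log scales, by tissue. Points are libraries, black lines medians, and an open triangle a library with 0 reads of miR-215. Jejunum and ileum stand at medians of 19.9 and 17.5 in the upper panel and liver at 0.0455, while in the lower panel plasma stands alone at 0.438.

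The libraries of the intestine differed in their makeup. miR-143 and miR-145 are known for smooth muscle. Their summed level was 136640, 85877, 615456, 412923 and 213351 RPM in duodenum replicates 1 to 5, lowest in replicate 2, where all members peaked, and highest in replicates 3 and 4, where all were lowest. The summed level of 5 miRNAs of epithelium (the miR-200 family with miR-141 and miR-429) was 6005, 19673, 1751, 207 and 2556 RPM in the same libraries, and all 5 had reads in each of them. Ileum replicates 1 to 5 held 255228, 138911, 137273, 440324 and 254379 RPM of smooth muscle miRNAs and 4014, 6418, 4778, 1609 and 1586 RPM of epithelial ones.

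In jejunum the smooth muscle sum ran from 91771 to 171054 RPM, and in colon from 135117 to 441136 RPM. The epithelial sum ran from 4843 to 23613 RPM in jejunum and from 2281 to 5002 RPM in colon. miRNAs known for red cells (miR-144, miR-451 and miR-486) summed to 2768, 1733, 22898, 74447 and 33885 RPM in duodenum, lowest in replicates 1 and 2. miR-142 and miR-150, known for leukocytes, summed to 6845, 9273, 416, 262 and 1602 RPM in the same libraries, highest in replicates 1 and 2, as the members were. The part of this makeup in the spread between segments was not tested. With the reads of miR-143 taken out of the total, an alternative chosen after the values were seen, the range of miR-192 in duodenum was still 48.0-fold, that of miR-194 92.2-fold and that of miR-215 124-fold.

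**Figure D4:**
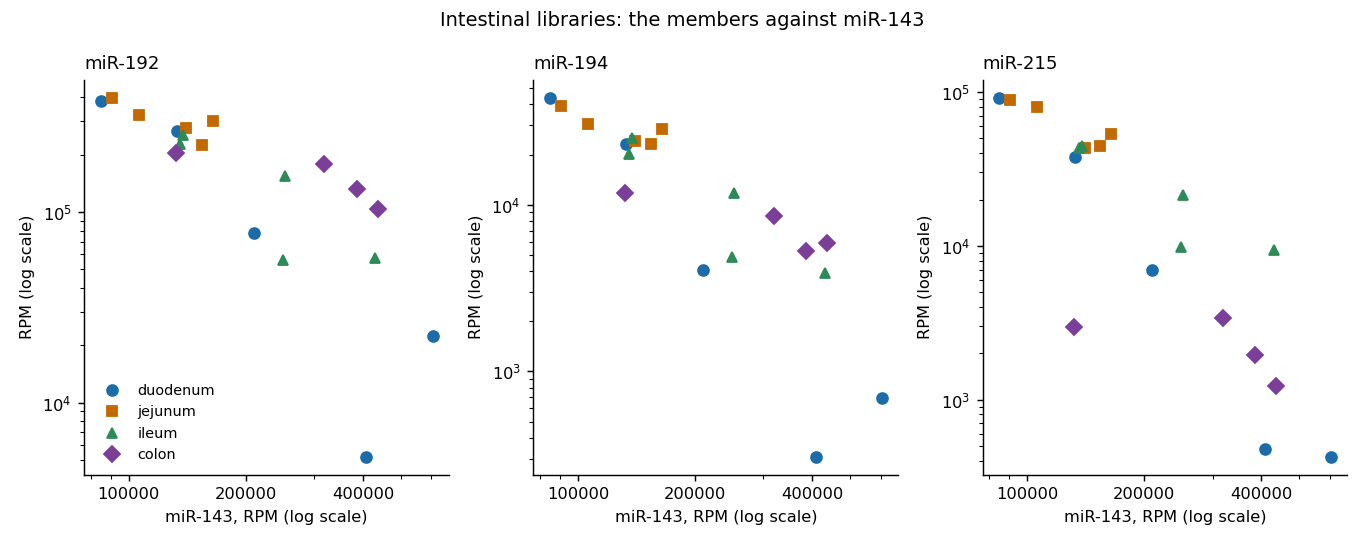
Level of each member (y axis, RPM, log scale) against the level of miR-143 (x axis, RPM, log scale) in 19 intestinal libraries, marked by segment. The duodenal libraries spread from 84748 to 604122 RPM of miR-143, with miR-192 from 385247 down to 22363 RPM at these ends, and in miR-215 the colon libraries lie below every jejunal and ileal library.

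The opposite arm of the miR-192 hairpin was in the table as hsa-miR-192-3p, a row named from the human annotation. It was the only 1 of 6 listed names of opposite arms found. It stood at 39.98 to 57.03 RPM in jejunum, 28.0 to 35.8 RPM in liver and 4.59 to 15.4 RPM in kidney. For each 1000000 reads of miR-192 there were 175 of this arm in jejunum, liver and kidney, 145 in colon and 131 in ileum, with the libraries of a tissue pooled and from 166 to 446 reads of it in each. Single libraries ran from 143 to 219 in jejunum, from 144 to 213 in liver and from 115 to 274 in kidney, where replicate 4 gave 89 of the 166 reads, and no test was made of these ratios. The arm was higher in the intestine than in the other 12 tissues (5.18 ± 0.33, edgeR adjusted p = 1.676e-20) and higher in liver than in kidney (1.58 ± 0.58, adjusted p = 0.0289), as the main arm was. The size of the first difference rests in part on counts under the floor. The arm had 0 reads in bone marrow, sciatic nerve and testis, and at most 2 in any library of heart, lung, skeletal muscle and thymus.

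Of 9 other miRNAs known for epithelia (miR-200a, miR-200b, miR-200c, miR-141, miR-429, miR-203, miR-205, miR-31 and miR-375), 8 were called higher in the intestine than in the other 12 tissues and none lower, with a median of 3.90 against 0.0046 over all 480 miRNAs, of which 30.6% were called higher. None of the 9 was called between small intestine and colon (median -0.57). Against liver 7 were higher in the small intestine and none lower, with a median of 3.83 against 0.25 over all miRNAs, of which 23.1% were called higher. Against kidney 4 were higher in the small intestine (miR-141, miR-200c, miR-203 and miR-375) and miR-205 was lower, with a median of 0.31 and 19.6% of all miRNAs called higher. miR-192, not called against liver, was at -0.09 there, and all 3 members were called higher against kidney. Between liver and kidney 4 of the 9 were lower in liver (miR-200a, miR-200b, miR-31 and miR-429) and 2 higher (miR-203 and miR-375), among 17.5% of all miRNAs called lower and 14.2% called higher, while miR-192 and miR-194 were higher. The summed epithelial level of the miR-200 family with miR-141 and miR-429 had its highest tissue median in pancreas (18359 to 20618 RPM), although jejunum replicate 2 lay above every pancreas library, and was 59.5 to 291 RPM in liver.

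Over all 76 libraries the miRNA most like miR-192 was miR-194, with a Spearman rho of 0.919, among 266 miRNAs with a tissue median above 100 RPM. Next came miR-203 (0.807), miR-215 (0.740), rno-miR-21-3p (0.740) and miR-21 (0.702). For miR-194 the list was miR-192, miR-21 (0.797), hsa-miR-28-5p (0.729), miR-215 (0.694) and miR-18a (0.671). For miR-215 it was miR-192, miR-194, miR-203 (0.663), miR-375 (0.658) and miR-802 (0.628). These correlations describe libraries that share tissues and a total per library. In the 19 intestinal libraries rho was 0.974 between miR-192 and miR-194 and 0.870 between miR-192 and miR-215. In the other 57 libraries it was 0.821 and 0.480.

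Single libraries outside the intestine carried the members at unlike levels. Brain held 3151, 2518, 23546, 2726 and 2869 RPM of miR-192, so that replicate 3 stood above all others. In that library miR-194 was 430 RPM against 44.7 to 87.0 in the others, whereas miR-215 was 20.1 RPM, within their range of 0 to 32.0. Its miR-9 and miR-124, known for neurons, were at 40348 and 4442 RPM, at the upper end of the brain libraries. Its epithelial sum of 16.2 RPM was the lowest of the 5 brain libraries, with 3 of 5 members read, its miR-122 was at 0 reads, and its red cell sum of 42639 RPM was the highest. Its pancreas sum (miR-216a, miR-216b and miR-217) was 21.6 RPM against 0.869 to 3.42 RPM. Its miR-204, which is high in kidney, was 18388 RPM against 2833 to 8209 RPM in the other brain libraries. What these have to do with its miR-192 was not tested.

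In plasma miR-192 and miR-215 were highest in replicate 4, at 30131 RPM of miR-192 and 474 RPM of miR-215. Its epithelial sum was 1209 RPM against 269 to 458 RPM in the other plasma libraries, with 4 of 5 miRNAs read and miR-200a at 0 in all 5. Its pancreas sum (56.2 RPM against 7.36 to 21.8 RPM) and its smooth muscle sum (2206 RPM against 498 to 1444 RPM) were also the highest of plasma. miR-122, the defining miRNA of hepatocytes, had at most 0.566 RPM in plasma and was at 0 in 4 of 5 libraries. Red cell miRNAs summed to between 543769 and 815725 RPM in plasma. The part of these in the plasma values was not tested.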

How the data were processed

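Small RNA was sequenced (miR-seq) in 77 labelled samples, and 76 of them, with values in the deposited table, were used. 1 labelled colon sample had no values there, and 1 sample name that no label matched was not used. To make the deposited counts, the authors clipped adaptors, aligned reads to CanFam 3.1 with OSA without mismatches, dropped reads at many locations, and counted those that overlapped dog, rat or human miRNA loci. Whether reads were shared between miRNAs of similar sequence cannot be read from the counts. The deposited RPM is the count scaled to the deposited total of reads on miRNAs, and RPM recomputed that way differed by a relative difference of at most 2.894e-09. A deposited column of the highest RPM of each miRNA was not used. Unlisted miRNAs were set to 0. Over 147 pairs of libraries of the same tissue, the chi-square per degree of freedom was at least 10.3, so no pair differed by counting error alone. This check cannot tell separate libraries made from 1 RNA sample from those of separate samples.

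Tissues were taken from the sample labels. Tests were the exact rank-sum test of RPM for TE, the exact permutation test of log2(RPM + 1) and of log2 count ratios (0.5 added to each count), and edgeR 4.0.16 (TMM, filterByExpr, quasi-likelihood test) under R 4.3.3. Intervals of log2 differences are 95% from the SE. DESeq2 1.42.0, other scalings, pseudocounts, filters, medians and each sample left out were alternatives. Python 3.11.15 was used with scipy 1.17.1, numpy 2.4.6, matplotlib 3.10.9 and pandas 2.3.3, and the tests were tried on simulated data. The members, lists and tests were chosen with earlier results of these data known. Named miRNAs were the members, the lists given, and for each member the 5 miRNAs with the highest Spearman rho. No miRNA sequence file was used here, so no sequence is shown.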

Additional observations from a re-analysis of the deposited data

Results flagged for a closer look

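Among 75 groups of 4 or 5 libraries (the level of each member and the ratios of miR-215 and miR-194 to miR-192, by tissue), 6 held a library set far apart from the others by Dixon's test at the 95% level, while chance flags about 1 in 20 groups. Brain replicate 3 stood apart in miR-192, at 23546 RPM against 2518 to 3151 RPM in the other brain libraries. The same library stood apart in miR-194, at 430 RPM against 44.7 to 87.0 RPM. Brain replicate 2 stood apart in the ratio of miR-194 to miR-192, with 3.46 reads for each 100 against 1.56 to 1.86, and its epithelial sum of 1602 RPM was the highest of brain. Liver replicate 3 held 163 RPM of miR-215 against 47.1 to 80.1 RPM. Plasma replicate 4 held 474 RPM of miR-215 against 36.8 to 121 RPM. Plasma replicate 2 had 1.39 reads of miR-194 for each 100 of miR-192 against 0.392 to 0.630. No cause of these was tested.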

How the results depend on the processing

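No paired analysis was possible because the labels carry no dog or replicate numbers. Among values that answer a comparison, 294 kept their direction and their side of the threshold under alternatives that left no single library out. A further 13 turned sign, 8 gained a call and 2 moved. Numbers of tissues or pairs called are among these values, and counted as kept under small changes and as moved under larger ones. Alternatives without the 3 libraries that stand apart, or without miR-143 in the totals, were chosen after the data were seen. With medians in place of means, 2 tissues were TE for miR-192 and 2 for miR-215. Small intestine minus liver turned positive for miR-192 with deposited library sizes (0.048), DESeq2's size factors (0.24), no filter on low counts (0.014), the DESeq2 test (0.24), without the libraries that stand apart (0.082) and without miR-143 (0.21), none of them called. In that contrast miR-194 was called with DESeq2's size factors (1.20), by the DESeq2 test (1.20) and without miR-143 (1.14). Plasma minus bone marrow turned negative for miR-194 with deposited library sizes (-0.98), DESeq2's size factors (-0.19), no filter (-0.36), a fit on these tissues alone (-0.095), the DESeq2 test (-0.20), without the libraries that stand apart (-0.17) and without miR-143 (-0.997), none of them called. miR-215 was called in ileum minus colon in a fit on these tissues alone (3.19) and by the DESeq2 test (3.14), and in jejunum minus ileum in a fit on these tissues alone (1.53). Without the libraries that stand apart, miR-192 (1.55) and miR-194 (1.68) were called in jejunum minus ileum. miR-215 in plasma minus the other 15 tissues, not called, turned to -0.26 with deposited library sizes and -0.41 without miR-143. The step of miR-194 from bone marrow to testis was lost with TMM (0.54), without the libraries that stand apart (0.69) and without miR-143 (0.40). The cause of these changes was not tested.

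With each library left out in turn, 3696 values kept their direction and side, 93 turned sign, 7 lost a call and 4 gained one. Numbers of tissues or pairs called are among the values kept, also where they changed a little. The tissues in which miR-192 was called higher, for example, fell from 8 to 7. Many of the values also come from leaving out a library of a tissue outside the contrast. Duodenum minus jejunum ran from -2.11 to -0.76 (miR-192), -2.51 to -0.75 (miR-194) and -2.94 to -0.90 (miR-215). Liver minus kidney ran from 1.31 to 1.78 (miR-192) and 1.65 to 2.12 (miR-194). Small intestine minus liver ran from -0.26 to 0.23 (miR-192) and 0.56 to 1.13 (miR-194). Small intestine minus colon ran from -0.11 to 0.35 (miR-192), pancreas minus liver from -0.26 to 0.58 (miR-215) and plasma minus bone marrow from -0.53 to 0.50 (miR-194). The log2 ratio of miR-194 to miR-192 ran from -0.082 to 0.094 in bone marrow minus jejunum and from -0.021 to 0.15 in colon minus liver. The ratios of miR-215 and of miR-194 to miR-192 in jejunum or ileum minus colon, and that of miR-215 in colon minus liver, lost their call whenever 4 libraries were left on both sides, a number with which the exact test cannot reach as small a p. The step of miR-194 from jejunum to ileum was lost without any single jejunal library. Named pairs of tissues were chosen after their values were seen. Outside the intestine miR-215 rests on few reads, which limits its ratios there.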
